A study of Mus musculus with 4 samples.

Results

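The serpin genes of mouse liver tumours were described from bulk RNA sequencing, which reads the pooled RNA of all cells in a sample. Genes were taken as members when their symbol carried the stem Serpin, a clade letter from a to i and a number, and when they had at least 10 reads summed over the 4 libraries. Of 48526 gene identifiers, 63 carried such a symbol and 38 reached 10 reads. Among the other 25, 12 had 0 reads in every library and 13 had 1 to 9 reads in total.

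Serpins are a large family of proteins, most of which inhibit proteases. An inhibitory serpin offers an exposed loop as bait, and when the protease cuts it the serpin folds in on itself and traps the enzyme in a complex that is then cleared. In the liver, hepatocytes secrete the serpins of blood plasma, which restrain neutrophil elastase, thrombin, plasmin and the complement proteases, while most clade B serpins stay inside cells and protect them from their own or imported proteases. A few members inhibit nothing and carry hormones or assist collagen folding instead.

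All 4 tumours grew in C57BL/6 mice that received a methionine- and choline-deficient (MCD) diet for 2 weeks and then a graft, into the liver, of RIL-175 cells, a mouse hepatoma line carrying luciferase. The PBS group (PBS 1 and PBS 2) was given phosphate-buffered saline by mouth. The AKK group (AKK 1 and AKK 2) was given the gut bacterium Akkermansia muciniphila. Feeding began 2 weeks before the diet, ran through it, stopped for 6 days after surgery and was then taken up again. All tumours thus shared the diet, the surgery and 1 implanted line, and the labels give no age or sex. The comparison asks how tumours of bacterium-fed mice differ from those of saline-fed mice. It is not stated whether the replicates of a group came from separate mice, so p-values here measure only the spread between these samples. Table names follow 1 pattern in each group, and if that reflects different cohorts of mice, their effect and that of feeding cannot be told apart.

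The libraries held 48912489 to 59027227 reads on genes, and serpins took 0.101 and 0.210% of them in the PBS tumours and 0.167 and 0.173% in the AKK tumours. Levels are CPM, reads of a gene scaled to the library's depth, after adjustment by the trimmed mean of M-values (TMM), and each pair of values is given in replicate order. A count of 0 allows up to 3 reads, worth 0.0514 to 0.0631 CPM, which covers counting error only. AKK 1 stood apart with 3.92% mitochondrial reads against 1.64 to 2.33% elsewhere. PBS 1 stood apart in skeletal muscle markers, whose summed level was 257 CPM there, 9.15 in PBS 2 and 2.95 in either AKK tumour. The hepatoma marker Afp was present in all 4 tumours at 7.18 to 11.1 CPM. In bulk tissue, fewer cells of a type and less RNA per cell cannot be told apart.

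Promoters of 30 of the 38 members were found in a RefSeq table on GRCm38.p6. Printed here are the 250 bases before the start of 2 alpha-1-antitrypsin copies, Serpina1b and Serpina1d, which had the most and the fewest Serpina1 reads in both AKK tumours, and of Serpina3f and Serpina3g, which peaked in PBS 2, and Serpina3n, which peaked in PBS 1. They lie at chr12:103738190-103738439 (minus strand, Serpina1b), chr12:103773634-103773883 (minus strand, Serpina1d), chr12:104214294-104214543 (plus strand, the first of 2 listed starts of Serpina3f), chr12:104235897-104236146 (plus strand, Serpina3g) and chr12:104406458-104406707 (plus strand, Serpina3n), and each is written 5′ to 3′ on the gene's strand. Capitals mark GTTAAT, a core element of the hepatocyte factor HNF1, in the Serpina1 promoters, and TTCNNNGAA, the GAS element found in promoters that answer to interferon gamma, in the Serpina3 promoters.
Serpina1b: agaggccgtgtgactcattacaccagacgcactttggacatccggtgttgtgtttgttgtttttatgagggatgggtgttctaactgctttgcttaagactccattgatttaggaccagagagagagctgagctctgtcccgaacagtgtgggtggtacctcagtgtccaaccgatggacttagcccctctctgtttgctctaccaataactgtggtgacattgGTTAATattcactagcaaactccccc
Serpina1d: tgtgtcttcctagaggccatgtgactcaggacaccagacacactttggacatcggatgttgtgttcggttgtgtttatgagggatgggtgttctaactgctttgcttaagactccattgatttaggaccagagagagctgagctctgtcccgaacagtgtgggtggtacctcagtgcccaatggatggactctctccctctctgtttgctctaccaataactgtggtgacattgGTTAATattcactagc
Serpina3f: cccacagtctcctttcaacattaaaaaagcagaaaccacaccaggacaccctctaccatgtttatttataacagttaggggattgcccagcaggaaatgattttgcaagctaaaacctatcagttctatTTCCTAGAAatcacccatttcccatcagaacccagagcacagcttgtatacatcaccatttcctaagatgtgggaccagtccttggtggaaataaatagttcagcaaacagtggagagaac
Serpina3g: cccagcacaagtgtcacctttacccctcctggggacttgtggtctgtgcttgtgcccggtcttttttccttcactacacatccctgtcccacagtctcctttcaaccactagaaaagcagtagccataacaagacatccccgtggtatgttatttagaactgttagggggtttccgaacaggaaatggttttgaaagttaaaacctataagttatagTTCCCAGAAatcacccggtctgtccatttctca
Serpina3n: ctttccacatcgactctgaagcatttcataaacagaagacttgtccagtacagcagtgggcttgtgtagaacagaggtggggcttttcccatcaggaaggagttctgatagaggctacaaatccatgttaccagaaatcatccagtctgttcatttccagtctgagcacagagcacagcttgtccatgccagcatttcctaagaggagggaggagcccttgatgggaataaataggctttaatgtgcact

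Both motifs were searched on both strands. GTTAAT stood once in each of the 5 Serpina1 promoters, with its first base 21, 26, 27, 16 and 78 bases before the start in Serpina1a to Serpina1e. These 5 windows were 92.1 to 98.0% identical to one another over their aligned bases. The motif also stood in the promoters of Serpina7 and Serpinb8, so 7 of 30 members held it, against 6.43% of all 32851 promoter windows. TTCNNNGAA stood once in Serpina3f, 121 bases before its first start, and once in Serpina3g, 33 bases before its start, and it was absent from the Serpina3n window. Its 6 holders also included Serpina3i, Serpina11, Serpinb2 and Serpinb6a, against 7.02% of all windows. A match describes these letters and shows no binding. TGANTCA, the AP-1 motif, stood in 8 of 30 members, Serpina1a to Serpina1d among them, and in 6.75% of all windows. For all 3 motifs the counts are of members, while the shares are of windows. Serpina3f, Serpina7, Serpina11, Serpinb2, Serpinb6a and Serpinb12 had 2 windows each, so counts and shares are not in the same unit.

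Per kilobase of exon, 2 intracellular serpins stood above every plasma inhibitor in all 4 tumours. Serpinb6a, an intracellular inhibitor of cathepsin G and related enzymes, lay at 73.3 and 94.8 CPM per kb in PBS and 99.1 and 85.6 in AKK. Serpinb1a, which encodes an intracellular inhibitor of neutrophil proteases, lay below Serpinb6a throughout, with 38.3 and 71.2 CPM per kb in PBS and 64.9 and 48.6 in AKK. The values of both genes overlapped between the groups. The alpha-1-antitrypsin copies, among the most abundant transcripts of a healthy liver, ranked from 17 to 36 in the PBS tumours, from 5 to 17 in AKK 1 and from 11 to 27 in AKK 2.

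**Figure D1:**
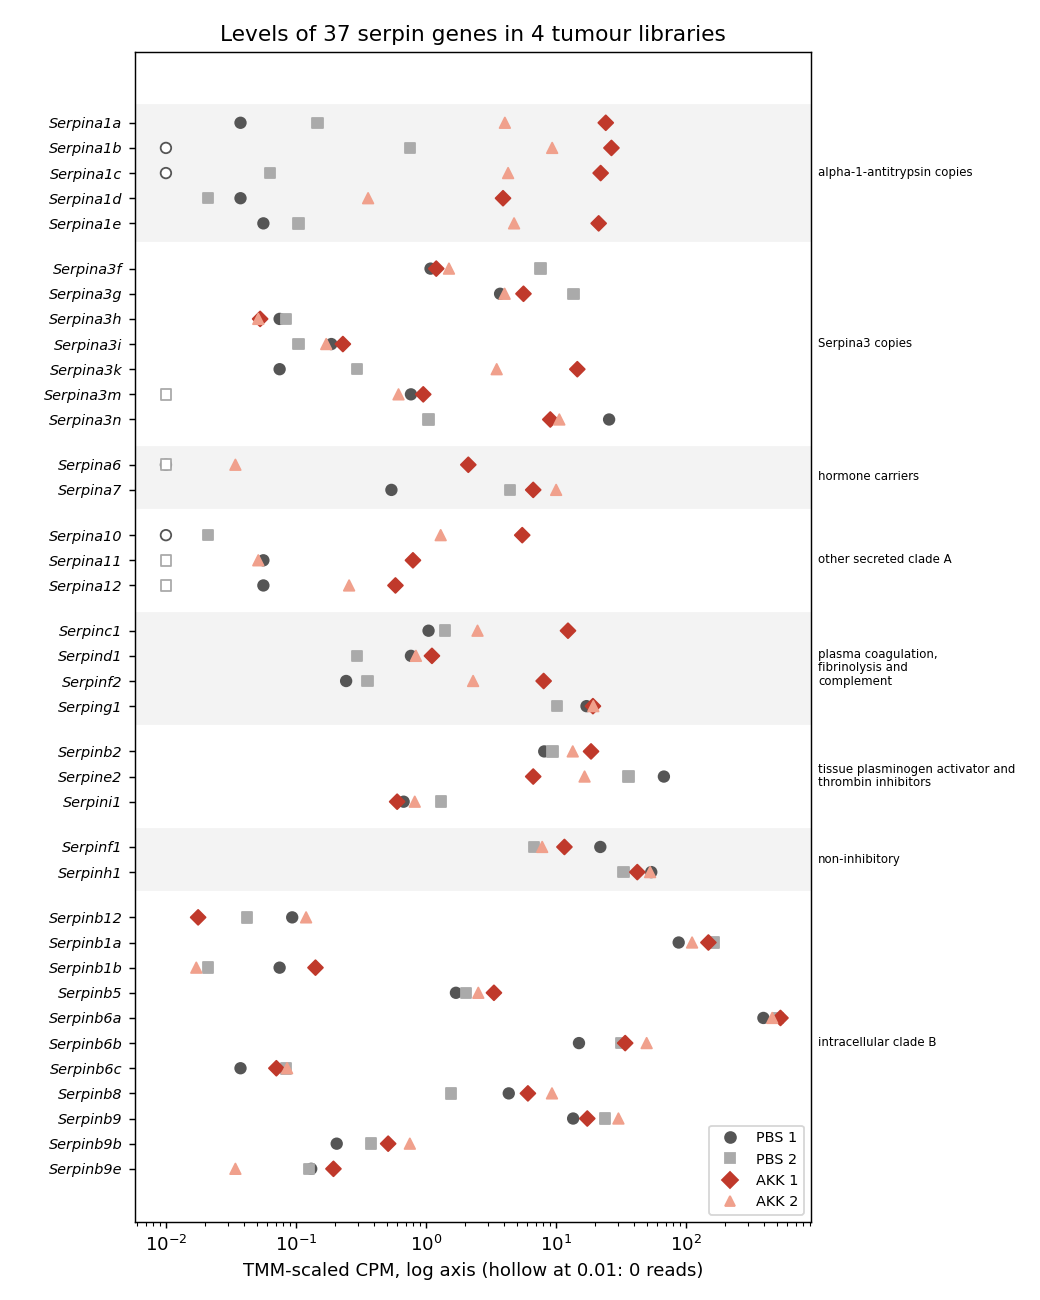
Level of each of 37 serpin genes in each of the 4 tumour libraries, in TMM-scaled CPM on a log axis, grouped by role (dark circles PBS 1, grey squares PBS 2, red diamonds AKK 1, light triangles AKK 2, hollow symbols 0 reads). The 5 alpha-1-antitrypsin copies lie at 0 to 0.757 CPM in PBS and at 0.360 to 26.8 CPM in AKK, and Serpinb6a keeps within 396 to 536 CPM in all 4.

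Across the family, no serpin passed the threshold in edgeR at an adjusted p of 0.05. The filter on low counts kept 31 of the 38 members, and over all 17479 genes kept, 0.00572% were called higher and 0% lower. DESeq2 called 8 serpins higher in AKK and 1 lower, where it called 2.04 and 2.98% of all genes. Serpina3i had no adjusted p in DESeq2. limma-voom called 0 serpins. At an unadjusted p under 0.05, edgeR counted 11 serpins higher and 1 lower against 6.7 and 8.62% of all genes, and limma-voom counted 13 in either direction against 14.4%. Both AKK tumours lay above both PBS tumours for 18 of the 31 kept members and below for 1, while 12 overlapped. The same held for 26.7 and 24.7% of all genes kept, and 51.4% of genes did not overlap in either direction. Of the 31, 24 had a positive log2 fold change and the median was 0.87, against 51.8% positive and a median of 0.02 over all genes. These counts do not stand for the family as a whole, since the 5 Serpina1 copies were counted one by one. Several members were also kept only through their AKK reads. Serpina1a, Serpina1c, Serpina1d, Serpina1e, Serpina10 and Serpina12 reached the filter's minimum level in neither PBS tumour. Serpina1b, Serpina3k and Serpina3m reached it in only 1 PBS tumour, where the filter asks for 2 libraries. The 7 members not kept were Serpina3h, Serpina6, Serpina11, Serpinb1b, Serpinb6c, Serpinb9e and Serpinb12.

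**Figure D2:**
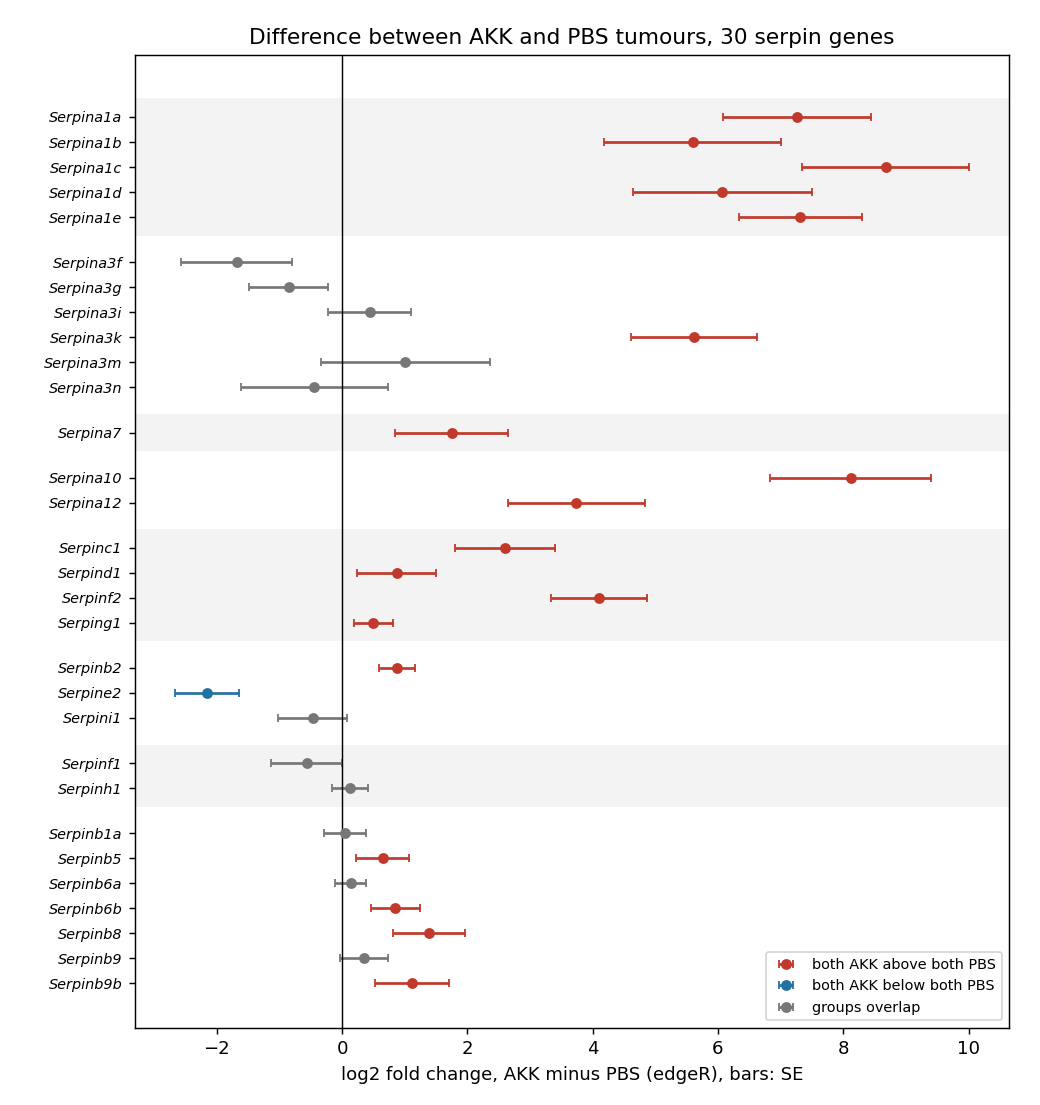
Log2 fold change, AKK minus PBS, of 30 serpins kept by the filter, with bars for the SE from edgeR and n = 2 per group. Red marks the 18 genes whose AKK tumours both lay above both PBS tumours, blue the 1 gene whose AKK tumours lay below (Serpine2, -2.15), and grey the 11 that overlapped.

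The alpha-1-antitrypsin copies lay higher in both AKK tumours, with fitted log2 fold changes of 5.60 to 8.67. Alpha-1-antitrypsin is the main plasma inhibitor of neutrophil elastase, and the mouse makes it from several near-identical genes in a row on chromosome 12. Serpina1a had 2 and 7 reads in the PBS tumours and 1371 and 237 in AKK, or 0.0375 and 0.147 CPM against 24.3 and 4.06 CPM. Serpina1e had 3 and 5 reads in the PBS tumours and 1209 and 279 in AKK, or 0.0562 and 0.105 CPM against 21.4 and 4.78 CPM. Neither gene overlapped between the groups, and within AKK the first tumour was the higher of the pair for both. Their log2 fold changes were 7.26 (SE 1.18) and 7.32 (SE 0.99), with an adjusted p of 0.182 for each in edgeR, while DESeq2 gave adjusted p of 1.27e-12 and 7.36e-15.

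Serpina1b, the copy whose reads were least sparse in saline-fed tumours, had 0 and 36 reads in the PBS tumours and 1516 and 548 in AKK. Its CPM of 0 and 0.757 stood against 26.8 and 9.38 (log2 fold change 5.60, SE 1.41, edgeR adjusted p = 0.212), and DESeq2 did not call it (adjusted p = 0.274). Serpina1c had 0 and 3 reads against 1252 and 251. Serpina1d had 2 and 1 reads against 222 and 21. For both copies AKK lay above PBS without overlap, but PBS held 3 reads in all, so the ratio of AKK to PBS rests on few molecules. That ratio was 440 for Serpina1c, with an exact 95% counting interval of 150 to 2136, and 71.1 for Serpina1d, with 24.1 to 347. Those intervals leave out the spread between tumours. DESeq2 called both copies (adjusted p of 0.000523 and 0.000544), and in edgeR their adjusted p were 0.182 and 0.199.

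The copies did not contribute alike. Per kilobase of exon, AKK 1 held 16.3 CPM of Serpina1c, 13.2 of Serpina1a, 13.2 of Serpina1e, 11.1 of Serpina1b and 2.82 of Serpina1d. In AKK 2 the order was Serpina1b at 3.89, Serpina1c at 3.16, Serpina1e at 2.95, Serpina1a at 2.22 and Serpina1d at 0.258 CPM per kb. Serpina1d was thus the lowest copy in both AKK tumours, and the order of the other 4 differed between them. That order also depends on the length used. Merged exons span 2415 bases in Serpina1b, whose longest coding transcript has 1762, while both lengths are 1361 in Serpina1c. Serpina1b took 27.2% of the counted Serpina1 reads in AKK 1 (exact 95% interval 26.1 to 28.4%), 41.0% in AKK 2 (38.4 to 43.7%) and 69.2% of 52 reads in PBS 2 (54.9 to 81.3%), and 0 of 7 reads in PBS 1. The intervals in AKK 1 and AKK 2 do not overlap, although they cover counting error only.

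Single copies are uncertain, because reads that fit several genes are left out of the tables. The longest coding transcripts of the 5 copies were 91.5 to 97.6% identical. Of all stretches of 151 bases, the read length, 40.7% in Serpina1a, 16.3% in Serpina1b, 50.5% in Serpina1c, 23.2% in Serpina1d and 7.44% in Serpina1e occurred in another gene as well. The part of these lost reads in the order of the copies was not tested. Summed into 1 row, the copies had 7 and 52 reads in the PBS tumours and 5570 and 1336 in AKK, which gave 0.131 and 1.09 CPM against 98.6 and 22.9 CPM. The groups did not overlap, and the log2 fold change was 6.65 (SE 1.14, edgeR adjusted p = 0.182).

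Other secreted clade A serpins next to these genes were likewise highest in AKK 1. Serpina10, which encodes the protein Z-dependent inhibitor of coagulation factor X, had 0 and 1 reads in the PBS tumours and 312 and 76 in AKK, a ratio of 341 with a counting interval of 60.8 to 13492. DESeq2 called it (adjusted p = 4.42e-05), and edgeR gave an adjusted p of 0.182. Serpina12, which encodes vaspin, had 3 and 0 reads against 33 and 15, a ratio of 14.05 with an interval of 4.53 to 70.5, and passed in neither tool (adjusted p = 0.246 in edgeR and 0.198 in DESeq2). In both genes each AKK tumour lay above each PBS tumour. Serpina11 had 3 and 0 reads against 45 and 3. Serpina6, which encodes the cortisol carrier transcortin, had 0 and 0 reads in the PBS tumours and 120 and 2 in AKK, so that AKK 1 held nearly all of them. Neither was kept by the filter. Serpina7, the thyroxine carrier, is on the X chromosome and behaved otherwise: it had 29 and 212 reads in the PBS tumours and 379 and 588 in AKK, or 0.544 and 4.46 CPM against 6.71 and 10.1 CPM. Its groups did not overlap, AKK 2 was the higher AKK tumour, and its log2 fold change was 1.75 (SE 0.90, edgeR adjusted p = 0.404). With 1 library left out it ranged from 0.91 (without PBS 1) to 3.92 (without PBS 2).

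**Figure D3:**
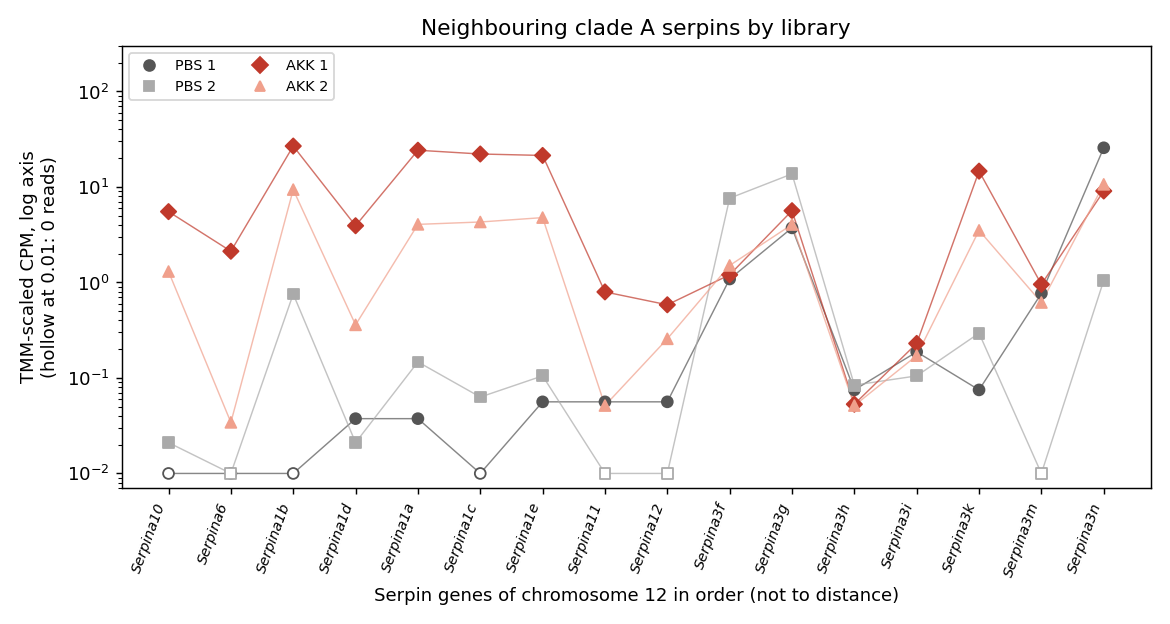
Levels of the 16 serpin genes of chromosome 12, in their order along it but not to distance, in TMM-scaled CPM on a log axis, with 1 line per library and hollow symbols for 0 reads. From Serpina10 to Serpina12 both AKK lines run above both PBS lines except at Serpina11, and among the Serpina3 copies the lines cross, with PBS 2 highest at Serpina3f (7.63 CPM) and Serpina3g (13.7 CPM) and PBS 1 highest at Serpina3n (25.7 CPM).

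The Serpina3 copies, which correspond to the human acute phase inhibitor alpha-1-antichymotrypsin, differed from one another, and 5 of the 6 kept overlapped between the groups. Serpina3k, a plasma inhibitor of kallikrein made by hepatocytes, was the 1 copy of 6 kept whose groups did not overlap. It had 4 and 14 reads in the PBS tumours and 828 and 205 in AKK, or 0.0750 and 0.294 CPM against 14.7 and 3.51 CPM (log2 fold change 5.62, SE 1.01, adjusted p = 0.182 in edgeR and 3.15e-09 in DESeq2). Serpina3n, an inflammation-induced copy that inhibits leukocyte elastase and granzyme B, had 1373 and 50 reads in the PBS tumours and 513 and 622 in AKK, or 25.7 and 1.05 CPM against 9.08 and 10.7 CPM. The AKK tumours were close to each other and lay between the 2 PBS tumours, which were the extremes. Its log2 fold change of -0.44 (SE 1.17, edgeR adjusted p = 0.871) turned to 3.23 without PBS 1 (edgeR adjusted p = 0.0123). The summed muscle markers given above were also highest in PBS 1 (6 of 7 kept lay lower in both AKK tumours, and Myh4 and Pvalb were at 0 there), as were the summed fibroblast markers (2254 CPM against 803 to 1549). Neutrophil markers summed to 77.8 CPM in PBS 1 and 18.5 to 20.4 elsewhere, with Ly6g at 0 in all 4, but Mmp9 alone gave 71.3 CPM of that sum, and of 6 markers kept 3 lay higher and 1 lower in both AKK tumours. Their part in the Serpina3n level was not tested.

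Serpina3f and Serpina3g were highest in PBS 2. Serpina3i, which also holds the GAS motif, was lowest there, with 5 reads. Serpina3g, an intracellular cathepsin inhibitor of immune cells, read 3.73 and 13.7 CPM in PBS and 5.64 and 4.04 CPM in AKK. Serpina3f had 58 and 363 reads in the PBS tumours and 68 and 88 in the AKK tumours. In each gene PBS 2 stood alone at the top, 3.68 and 7.02 times above PBS 1, and the other 3 tumours lay close together. The log2 fold changes were -0.85 (SE 0.63, edgeR adjusted p = 0.535) and -1.68 (SE 0.89, edgeR adjusted p = 0.410), and without PBS 2 they were 0.34 and 0.29. Gbp2, an interferon-induced gene, was also highest in PBS 2, with 73.5 and 574 CPM in PBS and 73.3 and 109 in AKK. Lymphocyte markers summed to 8.38 and 17.1 CPM in PBS and 16.4 and 9.74 CPM in AKK. Their part in the Serpina3f and Serpina3g levels was not tested.

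The remaining copies were sparse: Serpina3m had 41 and 0 reads in the PBS tumours and 54 and 36 in AKK, Serpina3i had 5 to 13 reads per library and Serpina3h 3 or 4. As a result the counted Serpina3 reads belonged to different copies in different tumours. Serpina3n made up 81.3 and 4.60% of them in the PBS tumours and 28.5 and 51.8% in the AKK tumours, while Serpina3k made up 46.1 and 17.1% in the AKK tumours and 1.29% or less in PBS. Summed over all copies, including those under 10 reads, the cluster hid these differences, at 31.8 and 22.9 CPM in PBS and 31.8 and 20.6 CPM in the AKK tumours (log2 fold change -0.06, SE 0.30, edgeR adjusted p = 0.936). Their longest coding transcripts were 74.9 to 90.9% identical, and at most 0.265% of 151-base stretches recurred in another gene, so fewer reads of these copies fit several genes than of the Serpina1 copies.

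Plasma serpins of coagulation, fibrinolysis and complement lay higher in both AKK tumours in 4 of 4 genes, and DESeq2 called 2 of them. Over all genes kept, 26.7% lay higher in both AKK tumours and DESeq2 called 2.04% higher. Serpinc1 encodes antithrombin, the chief inhibitor of thrombin and factor Xa. It had 56 and 67 reads in the PBS tumours and 702 and 146 in the AKK tumours (log2 fold change 2.60, SE 0.79, adjusted p = 0.252 in edgeR and 0.0115 in DESeq2). AKK 1 held most of that difference, and without it the log2 fold change was 1.03. Serpinf2, which encodes alpha-2-antiplasmin, read 0.244 and 0.357 CPM in PBS and 8.07 and 2.31 CPM in the AKK tumours (log2 fold change 4.10, SE 0.77, adjusted p = 0.182 in edgeR and 3.3e-06 in DESeq2). Both AKK tumours stood clear of both PBS tumours in these genes. Serpind1, which encodes heparin cofactor II, read 0.768 and 0.294 CPM against 1.11 and 0.839 CPM. Serping1 encodes the C1 inhibitor, which many cell types besides hepatocytes make, and it read 17.2 and 10.2 CPM against 19.3 and 19.5 CPM. The gaps of these 2 genes were small beside the spread within PBS, with log2 fold changes of 0.87 (SE 0.63) and 0.50 (SE 0.31) and edgeR adjusted p of 0.523 and 0.466.

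Markers of hepatocytes separated the groups in the same direction as these plasma serpins. All 21 markers found in the tables lay higher in both AKK tumours (edgeR called 1, Fgb, and DESeq2 20), with summed levels of 105 and 200 CPM in PBS and 1138 and 480 CPM in AKK, and none was at 0 in both PBS tumours. Of all genes kept, 26.7% lay higher and DESeq2 called 2.04% higher. Alb, Apoa1, Apoa2, Hpx, Ass1 and Rbp4 reached the filter's minimum in both PBS tumours, and the other markers were kept only through AKK reads. Within AKK, the first tumour exceeded the second by a median of 5.64 times over the 21 markers (range 1.21 to 14.9). The 10 serpins of clades A, C and F with an unadjusted p under 0.05 and higher in AKK (Serpina1a to Serpina1e, Serpina3k, Serpina10, Serpina12, Serpinc1 and Serpinf2), a set drawn after their values were seen, had a median ratio of 4.36 (range 2.27 to 10.9). The other 21 kept serpins, Serpinb2 among them with a ratio of 1.38, had a median of 0.852 (range 0.402 to 1.55). The 10 were picked on their AKK values. Of them, 6 reached the filter's minimum in neither PBS tumour, and Serpina1b and Serpina3k in only 1. The gap between the sets is thus a description and supports nothing. Against albumin, the main hepatocyte secretion, there were 43.75 and 111 Serpina1 reads per 100 Alb reads in the PBS tumours and 63.2 and 90.2 in AKK, with 16 and 47 Alb reads in PBS. By the same measure Serpinc1 stood at 350 and 143 in PBS and 7.96 and 9.86 in AKK, Serpinf2 at 81.25 and 36.2 against 5.17 and 9.12, and Serpina3k at 25 and 29.8 against 9.39 and 13.8. These 3 genes were thus more plentiful beside Alb in the PBS tumours, on few reads, and Serpina1 was not. Serpina10 went the other way, at 0 and 2.13 in PBS and 3.54 and 5.13 in AKK, with 0 and 1 reads in PBS. The part of hepatocyte RNA in the serpin differences was not tested.

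**Figure D4:**
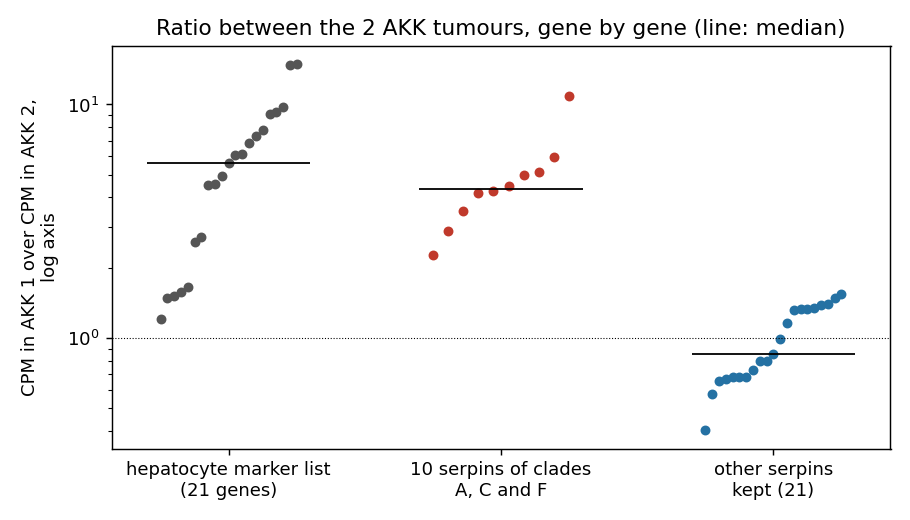
Ratio of the level in AKK 1 to that in AKK 2 for each of 21 hepatocyte markers, 10 serpins of clades A, C and F and the other 21 kept serpins, on a log axis, with 1 point per gene and a line at the median. The medians are 5.64, 4.36 and 0.852, and the 10 serpins were picked on their AKK values.

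Of the serpins described here that act on thrombin and the plasminogen activators in tissue, Serpinb2 lay higher in both AKK tumours, Serpine2 lay lower and Serpini1 overlapped between the groups. Plasminogen activators turn plasminogen into plasmin, which degrades fibrin and matrix. Serpine2 (ENSMUSG00000026249.10), which encodes protease nexin-1, an inhibitor of thrombin and urokinase at the cell surface, was the 1 serpin that lay lower in both AKK tumours among those kept. It had 3625 and 1718 reads in the PBS tumours and 379 and 973 in AKK, or 67.9 and 36.1 CPM against 6.71 and 16.7 CPM. The 2 groups did not overlap, and the log2 fold change of -2.15 (SE 0.51) had an unadjusted p of 0.00599 and an adjusted p of 0.202 in edgeR, while DESeq2 called it (adjusted p = 0.00116). Endothelial markers lay lower in both AKK tumours for 8 of 10 kept genes and higher for 1. DESeq2 called 4 of them lower and 1 higher, against 2.98 and 2.04% of all genes. Their summed levels were 118 and 82.0 CPM in PBS and 47.6 and 48.1 CPM in AKK (Clec4g at 0 in PBS). Macrophage markers lay lower in both AKK tumours for 9 of 10, at 990 and 772 CPM summed against 658 and 674. Fibroblast markers did so for 5 of 14, with 2 higher, at 2254 and 803 CPM summed against 1026 and 1549. Over all genes, 24.7% lay lower in both AKK tumours. The part of these cell types in the Serpine2 level was not tested.

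Serpinb2 (ENSMUSG00000062345.10) encodes a mostly intracellular inhibitor of urokinase that macrophages and stressed epithelia make. Its levels of 8.15 and 9.46 CPM in PBS and 18.7 and 13.5 CPM in AKK did not overlap, with a log2 fold change of 0.87 (SE 0.29, adjusted p = 0.274 in edgeR and 0.110 in DESeq2). Serpini1, which encodes neuroserpin, an inhibitor of tissue plasminogen activator, had 36 and 62 reads in the PBS tumours and 34 and 48 in AKK, which overlapped.

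**Figure D5:**
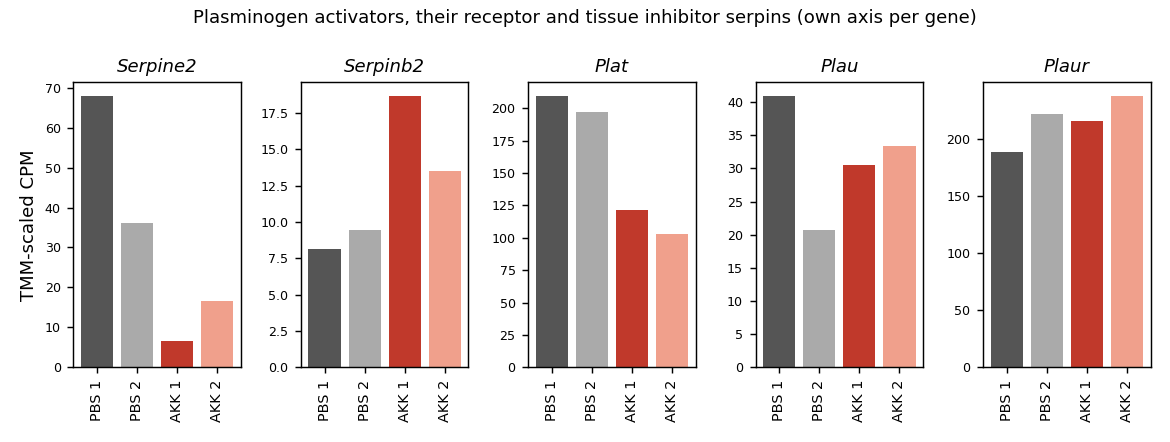
Levels of 2 tissue inhibitors (Serpine2 and Serpinb2) and of the plasminogen activators Plat and Plau and the receptor Plaur in the 4 tumours, as bars in TMM-scaled CPM, with an axis of its own for each gene and 1 bar per library. Serpine2 and Plat are lower in both AKK tumours, Serpinb2 is higher in both, and the AKK bars of Plau lie between those of PBS.

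The proteases and receptors that serpins act on were counted from a list of 32 genes. Of 30 kept, 11 lay higher and 6 lower in both AKK tumours, beside 26.7 and 24.7% of all genes, and the median log2 fold change was 0.18. edgeR called 0 of them, with 10 higher and 2 lower at an unadjusted p under 0.05 (6.7 and 8.62% of all genes). DESeq2 called 8 higher and 2 lower (2.04 and 2.98% of all genes). F2, F9, F12, Plg, Klkb1, Masp2 and Prss8 reached the filter's minimum in neither PBS tumour, and Vtn, Hpn, F11 and Prtn3 in only 1. All the DESeq2 calls higher were among these genes, which were kept only through AKK reads. Gzma, lower in AKK, reached the minimum in only 1 AKK tumour. The counts thus do not stand for the list as a whole. The 4 genes of the list with the smallest p were plasma proteins of the liver. Prothrombin (F2), a target of Serpinc1, read 0.0375 and 0.168 CPM in PBS and 10.4 and 3.65 CPM in AKK, and the contact factor F12, a target of Serping1, had 0 and 1 reads against 258 and 78. Plasminogen (Plg), whose active form is the target of Serpinf2, had 0 and 3 reads against 713 and 155. Vitronectin (Vtn), an adhesive plasma protein, read 0.656 and 0.147 CPM against 35.0 and 6.83 CPM. All 4 were higher in AKK 1 than in AKK 2, and their edgeR adjusted p was 0.182 in each case. The activators, named after their values were seen, did not follow that pattern. Plat, the tissue activator, read 210 and 197 CPM against 121 and 103 CPM (log2 fold change -0.86, SE 0.19, adjusted p = 0.192 in edgeR and 0.0104 in DESeq2). Plau, or urokinase, read 40.9 and 20.7 CPM against 30.5 and 33.3 CPM, and its receptor Plaur 188 and 222 CPM against 216 and 238 CPM. Only Plat was free of overlap between the groups among these 3.

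Secreted proteins whose symbols lack the Serpin stem, most of them protease inhibitors, were counted from a list of 26 genes, 25 of them kept. The list includes Agt (angiotensinogen), a serpin by structure that inhibits no protease and lay higher in both AKK tumours. Of these, 16 lay higher and 2 lower in both AKK tumours, read against the same shares of all genes, with a median log2 fold change of 1.37. edgeR called 0, with 13 higher and 1 lower at an unadjusted p under 0.05 (6.7 and 8.62% of all genes). DESeq2 called 11 higher and 1 lower (2.04 and 2.98% of all genes). Pzp, Mug1, Itih1, Itih4, Ambp, Kng1 and Hrg reached the filter's minimum in neither PBS tumour, and Itih3, Ahsg and Slpi in only 1. Of the DESeq2 calls higher, A2m and Wfdc2 alone reached it in both PBS tumours, and the rest were kept only through AKK reads. Ahsg also stands on the hepatocyte list. The smallest p belonged to the macroglobulins Pzp and Mug1, to Ahsg, the gene of fetuin-A, and to Ambp, which yields bikunin. Their log2 fold changes were 8.35, 6.72, 7.99 and 8.30 and their edgeR adjusted p 0.0556, 0.120, 0.111 and 0.120. As with Serpina1a and Serpina1e, the PBS tumours held few reads of them, from 2 to 14.

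Serpinf1 and Serpinh1, which inhibit no protease, both overlapped between the groups. The hormone carriers Serpina6 and Serpina7, described above, inhibit none either, and Serpina7 did not overlap. Serpinf1, which encodes the anti-angiogenic factor PEDF, read 22.0 and 6.79 CPM in PBS and 11.7 and 7.86 CPM in the AKK tumours (log2 fold change -0.56, SE 0.57, edgeR adjusted p = 0.645). PBS 1 was the highest, and without it the log2 fold change was 0.52. Serpinh1, which encodes HSP47, the chaperone of procollagen, read 54.3 and 33.3 CPM against 42.4 and 53.2 CPM (0.13, SE 0.28, edgeR adjusted p = 0.847). Its partners in collagen folding and processing were counted from a list of 15 genes, all kept, of which 4 lay higher in both AKK tumours and 0 lower (median 0.10). A count of 4 of 15 is no more than the 26.7% of all genes that lay higher. The 4 were Pcolce, an enhancer of procollagen cleavage (133 and 84.1 CPM against 216 and 170 CPM), P4ha2, Ppib and Plod3. For these 15, edgeR and DESeq2 called 0, and 1 had an unadjusted p under 0.05 in edgeR.

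No intracellular clade B serpin passed the threshold, and all those kept had a positive log2 fold change. Of the 11 members other than Serpinb2, 7 were kept, with a median of 0.65. In 4 of the 7 both AKK tumours lay above both PBS tumours. Over all genes kept, 26.7% lay above in this way and 51.8% had a positive log2 fold change. edgeR and DESeq2 called 0 of the 7, and at an unadjusted p under 0.05 there were 0 in edgeR and 1, Serpinb8, in limma-voom. Serpinb6a read 396 and 513 CPM in PBS and 536 and 463 CPM in the AKK tumours (log2 fold change 0.14, SE 0.25, edgeR adjusted p = 0.807). Serpinb1a read 88.3 and 164 CPM against 149 and 112 CPM (0.05, SE 0.33, edgeR adjusted p = 0.952). Both overlapped between the groups, and their standard errors exceeded their differences.

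Serpinb9 and its relative Serpinb9b belong to the branch that blocks granzyme B, the killing protease of cytotoxic lymphocytes. Serpinb9 read 13.6 and 23.9 CPM in PBS and 17.5 and 30.4 CPM in the AKK tumours (log2 fold change 0.35, SE 0.39, edgeR adjusted p = 0.675), while Gzmb read 1.63 and 4.10 CPM against 3.11 and 1.25 CPM. The second tumour of each group was the higher one for Serpinb9, and Gzmb had no such order. Serpinb9b had 11 and 18 reads against 29 and 44 (1.12, SE 0.59, edgeR adjusted p = 0.412). Serpinb8, an inhibitor of furin-type proteases, read 4.35 and 1.56 CPM against 6.10 and 9.35 CPM (1.39, SE 0.57, unadjusted p = 0.0521 and adjusted p = 0.331 in edgeR). Serpinb6b read 15.1 and 31.6 CPM against 34.2 and 50.1 CPM (0.85, SE 0.39), and Serpinb5, the epithelial gene maspin, 1.71 and 2.04 CPM against 3.34 and 2.53 CPM (0.65, SE 0.42). Serpinb5, Serpinb6b, Serpinb8 and Serpinb9b were the 4 without overlap. The other 4 clade B members had 1 to 11 reads per library.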

How the data were processed

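Total RNA of the tumours was sequenced as 151-base read pairs, per the labels' protocols. The authors deposited raw read counts per gene in STAR's layout. STAR 2.5.2 is named together with RSEM 1.2.31 per the submitters' processing notes. Which build and annotation the authors used is not given in the sources used here. The own-strand column (95.4 to 96.2% of reads assigned by strand) was used. The 4 summary rows, which name no gene, were left out: 8.97 to 12.3% unmapped, 4.20 to 6.66% multimapping, 11.4 to 13.5% outside genes and 1.18 to 1.37% ambiguous reads. Symbols were matched for 48058 of 48526 identifiers.

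AKK was compared with PBS (n = 2 each) over all 17479 genes kept by filterByExpr, with the two-sided quasi-likelihood test of edgeR 4.0.16 (legacy form) in R 4.3.3, TMM scaling, a prior count of 0.125 and Benjamini-Hochberg adjustment at 0.05. The SE was derived from the F statistic. DESeq2 1.42.0 and limma-voom (limma 3.58.1) were alternatives, as were other scalings and filters, a replicate block, unstranded counts, summed copies and leaving out each library. The tests were tried on simulated counts first. Exon lengths, gene order and transcript identity came from GENCODE M21 (GRCm38). Kilobases are of merged exons, and intervals on shares and ratios are exact 95% intervals. Of the kept members, 1 is included in counts over the family and is not reported here. Members and lists were chosen with earlier results of these data known. Serpins were named with fold changes when kept without overlap and with an absolute log2 fold change of at least 1, or at a mean of at least 1 CPM. From each other list the 4 genes with the smallest p were named. Serpina3m, Serpind1 and Serpini1 and any other gene were named after their values were seen.

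The replicate numbers were not shown to pair tumours (r = -0.02 between the deviations of same-numbered libraries over 17479 genes, which are not independent replicates).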

Additional observations from a re-analysis of the deposited data

How the results depend on the processing

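The count of serpins past the threshold in edgeR, 0 of 31, stayed at 0 with upper-quartile scaling, DESeq2's size factors, a filter of 1 CPM in 2 libraries, unstranded counts, summed copies, limma-voom and an adjusted p of 0.1. It became 11 without a filter on low counts (10 higher, Serpina6 among them, and Serpine2 lower), 9 in DESeq2, 12 at an unadjusted p under 0.05, and 5 with the replicate number as a block (Serpina10, Serpina1a, Serpina1c, Serpina1d and Serpina1e, all higher). Leaving out 1 library gave 0 to 10: 10 without PBS 1, 8 without PBS 2 and 0 without AKK 1 or AKK 2. The lone library of a group was then assumed to vary like the others, and 18207 to 18779 genes were kept. The number of serpins whose groups did not overlap was 19 under the 3 other settings tried and 12 of 20 with the copies summed, where each cluster counts once. The median log2 fold change of the kept serpins ranged from 0.57 (copies summed) to 0.94. Of 321 single-gene values over 26 genes, 269 kept their direction and side of the threshold, 40 passed it in the same direction and 12 turned. Those that turned outside the left-out libraries were log2 fold changes of Serpina3n with the block (0.83) and in limma-voom (0.84). Others turned when a library was left out, with these ranges over the 4 fits, and the libraries whose absence turned them: Serpina3f from -2.49 to 0.29 and Serpina3g from -1.51 to 0.34 (PBS 2), Serpina3n from -1.41 to 3.23 (PBS 1), Serpinb1a from -0.33 to 0.53 (PBS 1 and AKK 1, the latter -0.17), Serpinb6a from -0.040 to 0.30 (PBS 1), Serpinb9 from -0.11 to 0.79 (AKK 2), Serpinf1 from -1.21 to 0.52 (PBS 1), and Serpinh1 from -0.21 to 0.52 (PBS 2, and AKK 2 with -0.05). The cause of these changes was not tested. Depth limits the alpha-1-antitrypsin copies, Serpina10 and Serpina12 in PBS, where most had fewer than 10 reads.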
